A study of Drosophila melanogaster with 4 samples.

Results

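The EGFR signalling genes described here are 10 genes of *Drosophila melanogaster*, namely the ligand genes spi, Krn and vn, the ligand-processing genes rho, ru and S, and the feedback inhibitor genes aos, kek1, sty and Mkp3. They were chosen by name for their roles in the pathway, with earlier results of these data known, and all 10 were found among the 14885 FlyBase genes of the deposited count tables. RNA came from eye-antennal imaginal discs, the paired larval epithelia from which the eye and the antenna of the adult develop, dissected from wandering larvae of the third instar. The wild-type group held Canton S and RAL-208, 2 strains sequenced in 1 library apiece and counted as biological replicates, and the glass mutant group held 2 libraries of the strain gl[60j], which the design text calls technical replicates. No treatment is labelled, and the number of larvae pooled for a library is not given in the sources used here. The mutant is thus 1 sample of 1 stock, and its genotype and its genetic background cannot be told apart.

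EGFR is a receptor tyrosine kinase that acts through Ras and MAP kinase, and in the developing eye it recruits successive photoreceptors and later cone and pigment cells to each cell cluster. Its main ligand there, Spitz, is made as a membrane-bound precursor that Star carries out of the endoplasmic reticulum and that intramembrane proteases of the Rhomboid family cut to release the active factor. Signalling switches on its own inhibitors, some secreted and some acting inside the receiving cell, which limits the range and the duration of the response. Glass is a zinc finger transcription factor needed for photoreceptors to differentiate, so the comparison of genotypes asks how the transcripts of these ligands, proteases and inhibitors stand in discs without normal Glass.

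Gene reads ranged from 11292175 to 27044633 per library, so that even the least covered member, Krn, had between 274 and 588 reads. Levels are given as CPM, reads scaled to a library total of 1000000 gene reads. For the gl transcript Canton S had 299 CPM, RAL-208 had 235 and the mutant libraries had 105 and 108. Markers of the tissue and of other cell types are described by their calls in an edgeR fit of the 4 libraries as separate samples, explained below, which called 11.3% of all genes tested lower in the mutant and 8.05% higher. All 7 eye progenitor markers and all 7 antennal disc markers had reads, with hth on both lists. Of the eye progenitor markers 3 were called higher (ey, toy and dac) and 0 lower, and of the antennal markers 2 were called lower (Dll and ct) and 2 higher (dan and danr). The central nervous system list includes the neuronal markers brp and Syt1. Its summed level was 552 CPM in Canton S and 671 in RAL-208 against 217 and 214 in the mutant libraries. The strains differed in single markers, with Gad1 3.26-fold, Vmat 2.61-fold and Rdl 2.25-fold higher in RAL-208. By contrast, brp was 1.27-fold higher in Canton S. Of the 13 markers in this list 11 were called lower and 0 higher. Among those called lower, VGlut had 44.8 and 67.1 CPM in the strains against 7.08 and 7.95 in the mutant libraries. Gad1 had 11.3 and 36.8 against 1.51 and 1.29, and wor 13.0 and 20.1 against 1.24 and 2.03. The markers not called were dpn and mira. Whether the reads of this list came from cells of the disc or of the brain was not tested. Of 6 fat body markers 3 were called lower (Lsp1alpha, Lsp1beta and Lsp1gamma) and 0 higher, and the summed level was 19789 CPM for Canton S, 10497 for RAL-208, and 2798 and 2722 for the mutant. The strains themselves differed widely in this list, with Fbp1 138-fold, Fbp2 23.0-fold and Lsp2 17.1-fold higher in Canton S and Lsp1beta 2.48-fold higher in RAL-208, and for Fbp1, Fbp2 and Lsp2 the mutant lay between the strains. Of 6 glia markers 2 were called lower (wrapper and loco) and 1 higher (Gli). Their summed level was 683 and 599.6 CPM in the strains against 760.1 and 740.0 in the mutant. Most of that sum was Gli alone, at 435 and 374 CPM against 568 and 564. Both mutant libraries lay below both strains in 4 of the 6 and above both in 2, beside 41.0% and 26.2% of all genes tested. Of 7 haemocyte markers 3 were called lower and 1 higher (PPO2), of 6 muscle markers 1 lower and 0 higher, and of 5 salivary gland markers 0 in either direction. No measured marker of the nervous system or fat body lists was at 0 reads in a whole genotype. The part of these other tissues in the results below was not tested, and in bulk RNA fewer cells of a type and less RNA per cell cannot be told apart.

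Levels were summed by role first. The ligand genes together held 393 and 356 CPM in wild-type discs against 362 and 356 in the mutant libraries. The processing genes together held 339 and 335 CPM against 255 and 248, or 0.746 of the wild-type mean. The feedback inhibitors together held 679 and 687 CPM against 529 and 502, or 0.755 of the wild-type mean. Differences between the roles were not tested. The lowest relative level was that of rho, the protease gene, and the next lowest was that of aos, the gene of a secreted inhibitor.

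Genotypes were tested with edgeR's quasi-likelihood test with both mutant libraries summed to 1 sample, and p-values were adjusted by Benjamini-Hochberg over the 9059 genes that passed a filter on low counts, as all 10 members did. That test called 0 of the 10 members and 0.0% of all genes tested at an adjusted p under 0.05. Without adjustment, 4 members were lower and 0 higher at p under 0.05, beside 10.2% of all genes lower and 6.44% higher. With limma-voom, 0 members were called, and the same 4 were lower when p was not adjusted (11.6% of all genes lower, 8.26% higher). DESeq2 called rho lower and 0 members higher, where 4.14% of its genes were called lower and 1.87% higher. An alternative that enters the 4 libraries as separate samples, called here the fit of 4 libraries, called rho, ru, aos and kek1 lower and 0 members higher, beside 11.3% of all genes lower and 8.05% higher. Its p-values are too small because the mutant libraries are technical replicates, and it called 0 genes when either of them was left out, so its calls only describe and rank.

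The median fitted log2 fold change of the 10 members was -0.30, where that of all genes tested was 0.0014. Of the members 9 had a fitted log2 fold change below 0, where 4508 of the 9059 genes did. Both mutant libraries lay below both wild-type libraries in 7 members and above both in 0 members, beside 41.0% and 26.2% of all genes tested. With library sizes scaled by TMM the members' counts were again 7 and 0, while the background became 33.6% and 34.5%. With a gap of at least 25% between the nearest libraries, 4 members were lower and 0 higher, beside 17.9% and 6.67% of all genes. Those 4 were again rho, ru, aos and kek1.

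**Figure D1:**
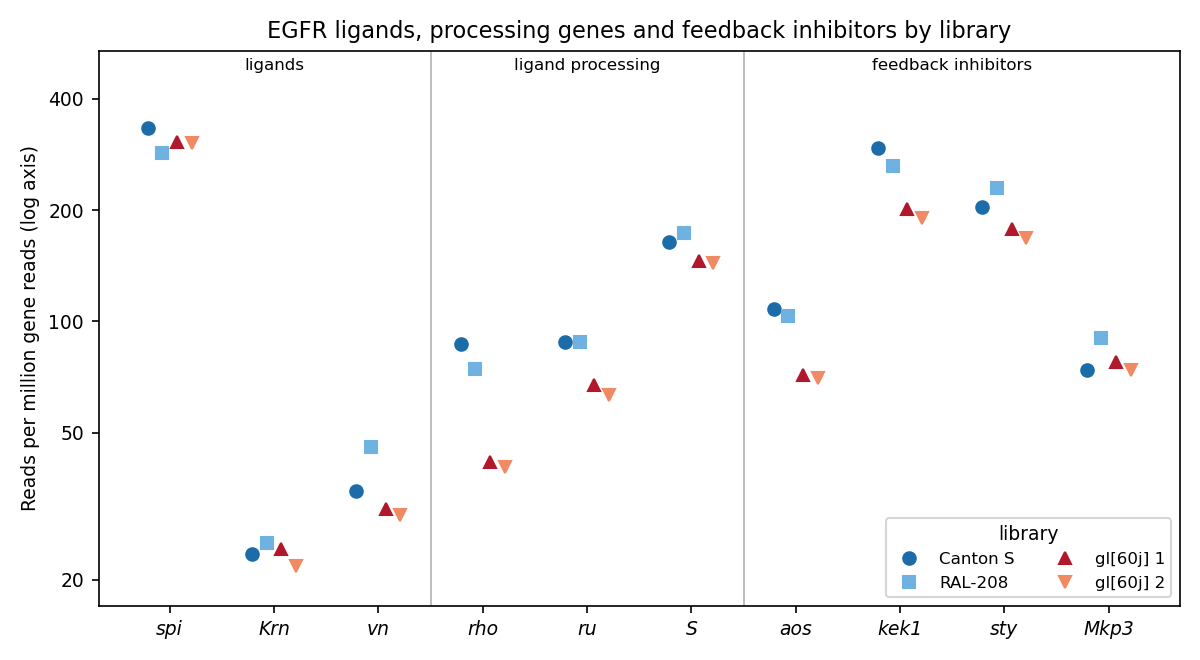
Level of each of the 10 genes in each library, as CPM on a log axis, ordered by role; each symbol is 1 library (circle Canton S, square RAL-208, triangles the 2 gl[60j] libraries). The mutant symbols of rho, at 41.6 and 40.3, stand farthest below the wild types, at 86.7 and 74.5, while those of spi lie between the 2 strains.

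Among the ligands, spi encodes the TGF-alpha-like ligand Spitz. Canton S had 334 CPM, RAL-208 had 286, and the mutant libraries had 306 and 305. The mutant libraries lay between the strains, and the fitted log2 fold change of 0.05 (95% interval -0.40 to 0.50, adjusted p = 0.904 in edgeR) took the opposite sign, -0.02, when libraries were scaled by their totals alone. Krn encodes Keren, a close relative of Spitz. Its wild-type levels were 23.5 and 25.2 CPM and its mutant levels 24.3 and 21.7, so the groups overlapped. Its fitted log2 fold change was -0.04 (95% interval -0.62 to 0.54, adjusted p = 0.945 in edgeR), an interval that leaves room for a difference in either direction. In the BDGP6 annotation 21.3% of the exon length of Krn overlaps its neighbour Ndfip on the same strand, and reads there may have been left uncounted or assigned to either gene.

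vn encodes Vein, a neuregulin-like ligand that is secreted without Rhomboid cleavage. It had 34.7 CPM for Canton S, 45.7 for RAL-208, and 31.0 and 29.9 for the mutant. Both mutant libraries were below both strains, but the nearest pair differed by only 1.12-fold and the strains differed from each other by 1.31-fold. The wild-type mean was 40.2 ± 7.72 CPM (SD, n = 2), and the fitted log2 fold change was -0.34 (SE 0.23; edgeR adjusted p = 0.547). Left out in turn, Canton S moved it to -0.51 and RAL-208 to -0.13, so its size depended on which strain served as wild type.

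Among the processing genes, rho encodes Rhomboid, the founding intramembrane serine protease. Canton S had 86.7 CPM and RAL-208 had 74.5, whereas the first mutant library had 41.6 and the second 40.3. The groups were separated by a gap of 1.79-fold, wider than the 1.16-fold between the strains. The mutant mean was 50.8% of the wild-type mean of 80.6 ± 8.68 CPM (SD, n = 2). The fitted log2 fold change was -0.91 (SE 0.16, 95% interval -1.37 to -0.45), with an adjusted p of 0.209 by edgeR on summed libraries, 0.0253 by DESeq2 and 0.0143 by the fit of 4 libraries. With any 1 library left out it stayed between -1.02 and -0.79, and 13.1% of all genes tested had a lower fitted fold change.

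ru encodes Roughoid, the Rhomboid relative that acts beside Rhomboid in the eye. Canton S had 87.9 CPM, RAL-208 had 87.8, and the mutant libraries had 67.2 and 63.3. The wild types were almost equal and the nearest mutant library was 1.31-fold lower. DESeq2 did not call ru, at a log2 fold change of -0.35. Its fitted value was -0.37 (SE 0.11) on the log2 scale, and edgeR's adjusted p was 0.260 on summed libraries and 0.0242 in the fit of 4 libraries. The genes rho and ru lie on the same chromosome arm with 5 protein-coding genes of the tables between them in the BDGP6 annotation.

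S encodes Star, the transmembrane protein that carries Spitz towards the compartment where it is cleaved. For this gene the strains had 164 and 173 CPM and the mutant libraries 146 and 144. The groups did not overlap, yet the nearest libraries differed by only 1.13-fold. Its fitted log2 fold change was -0.15 (95% interval -0.48 to 0.19, adjusted p = 0.596 in edgeR). The 3 processing genes thus stood at 50.8% (rho), 74.3% (ru) and 86.0% (S) of the wild-type mean by CPM, and the differences between them were not tested.

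Among the inhibitors, aos encodes Argos, a secreted protein that binds Spitz and keeps it from the receptor. Canton S had 107.8 CPM and RAL-208 103, and the mutant libraries had 71.6 and 70.2. The strains differed by 1.04-fold and the groups were separated by 1.44-fold. Its fitted log2 fold change was -0.51 (SE 0.11, 95% interval -0.84 to -0.18), with an adjusted p of 0.223 by edgeR on summed libraries, 0.294 by DESeq2 and 0.0148 by the fit of 4 libraries.

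kek1 encodes Kekkon-1, a transmembrane protein with leucine-rich repeats that binds the receptor itself. Canton S had 294 CPM, RAL-208 had 264, and the mutant libraries had 201 and 189.9. The nearest libraries differed by 1.31-fold, against 1.12-fold between the strains. DESeq2 did not call kek1, at a log2 fold change of -0.43. On the log2 scale the fitted value was -0.46 (SE 0.14), and edgeR's adjusted p was 0.266 on summed libraries and 0.0300 in the fit of 4 libraries, where kek1 had the largest adjusted p of the 4 called members. Between the mutant libraries its reads differed at an unadjusted p of 0.0211 in an exact binomial test, which compares these 2 libraries and not conditions, and the second library was the lower at 0.943 of the first.

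sty encodes Sprouty, an intracellular inhibitor of receptor tyrosine kinase signalling. Its levels were 203 and 229 CPM in the strains and 178 and 168 in the mutant. The groups did not overlap, and the fitted log2 fold change was -0.26 (95% interval -0.65 to 0.13, adjusted p = 0.430 in edgeR on summed libraries and 0.0888 in the fit of 4 libraries). Mkp3 encodes a phosphatase that inactivates the MAP kinase Rolled. Its wild-type levels of 74.0 and 90.3 CPM enclosed the first mutant library, at 77.8, and nearly the second, at 73.7, so the groups overlapped. With a fitted log2 fold change of -0.06 (95% interval -0.54 to 0.42, adjusted p = 0.896 in edgeR), it changed sign to 0.08 when RAL-208 was left out.

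Ratios of reads within a library do not depend on how libraries are scaled. Reads of rho per read of spi were 0.259 for Canton S and 0.261 for RAL-208 but 0.136 and 0.132 for the mutant. The strains were thus alike in this ratio although their CPM of both genes differed by 1.16-fold to 1.17-fold, and both mutant libraries were below both strains. For aos the ratio to spi was 0.322 and 0.362 against 0.234 and 0.230, and for kek1 it was 0.881 and 0.924 against 0.657 and 0.623. For ru it was 0.263 and 0.307 against 0.219 and 0.208. The ratios of Krn and Mkp3 to spi overlapped between genotypes, and those of S, vn and sty were separated only narrowly, as for S at 0.491 in Canton S against 0.477 in the first mutant library.

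**Figure D2:**
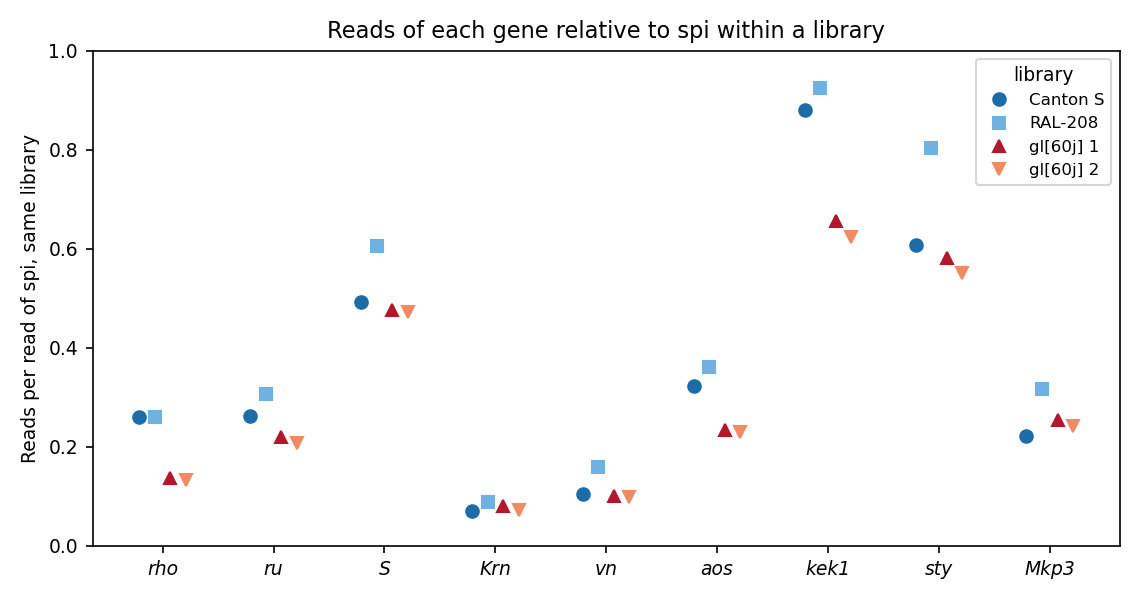
Reads of each of 9 genes divided by the reads of spi in the same library, on a linear axis from 0; each symbol is 1 library. For rho the strains coincide at 0.259 and 0.261 and the mutant libraries lie at 0.136 and 0.132. For Krn and Mkp3 the mutant symbols fall between the strains.

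Other ratios compared members with each other or with gl. Reads of aos per read of rho were 1.24 and 1.39 for the strains but 1.72 and 1.74 for the mutant, so rho was lower relative to the inhibitor gene too. Reads of kek1 per read of aos were 2.73 and 2.55 against 2.81 and 2.70, which overlap, so these inhibitor genes kept about the same proportion to each other in every library. Reads of rho per read of gl were 0.290 and 0.316 for the strains but 0.396 and 0.374 for the mutant, so gl was lower in proportion than rho. Since gl is itself the mutated gene, this ratio does not describe rho alone, and the part of the allele in it was not tested.

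The order of levels among the genes was compared per length, as CPM per kilobase of merged exons in the BDGP6 annotation, which is not the annotation the authors counted on. By that measure spi was highest in every library, at 184 and 157 for the strains against 169 and 168 for the mutant, and vn was lowest, at 6.63 and 8.71 against 5.92 and 5.71. Both ends of the order also held per kilobase of coding sequence, where spi was at 476 and 407 in the wild types. In between, ru, kek1, sty and aos lay within 36.6 to 50.9 in the wild types, and their order differed between the strains or between the measures of length. The place of rho among the 10, counted from the highest, was 7 in both wild types and 9 in both mutant libraries per exon kilobase, below Krn and Mkp3 in the mutant. Per coding kilobase it was 6 and 7 in the wild types and 8 in both mutant libraries.

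The spread between the wild-type strains set the scale for these differences. It was 1.12-fold at the median of the 10 genes and 1.14-fold at the median of all genes tested. The widest was vn, 1.31-fold higher in RAL-208 (Canton S over RAL-208 0.761, exact 95% interval 0.668 to 0.866), and it was the only member past a difference of 25%, as 30.7% of all genes tested were. Mkp3 was 1.22-fold higher in RAL-208 (ratio 0.820, interval 0.749 to 0.897), whereas spi was higher in Canton S (ratio 1.17, interval 1.12 to 1.23). The intervals of ru, S, aos and Krn included equal levels. These intervals cover counting error only, since each strain had 1 library. Between the mutant libraries 0 members differed at an adjusted p under 0.05 by the exact binomial test, beside 3.15% of all genes tested, and kek1 and sty had an unadjusted p under 0.05, beside 13.2% of all genes.

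**Figure D3:**
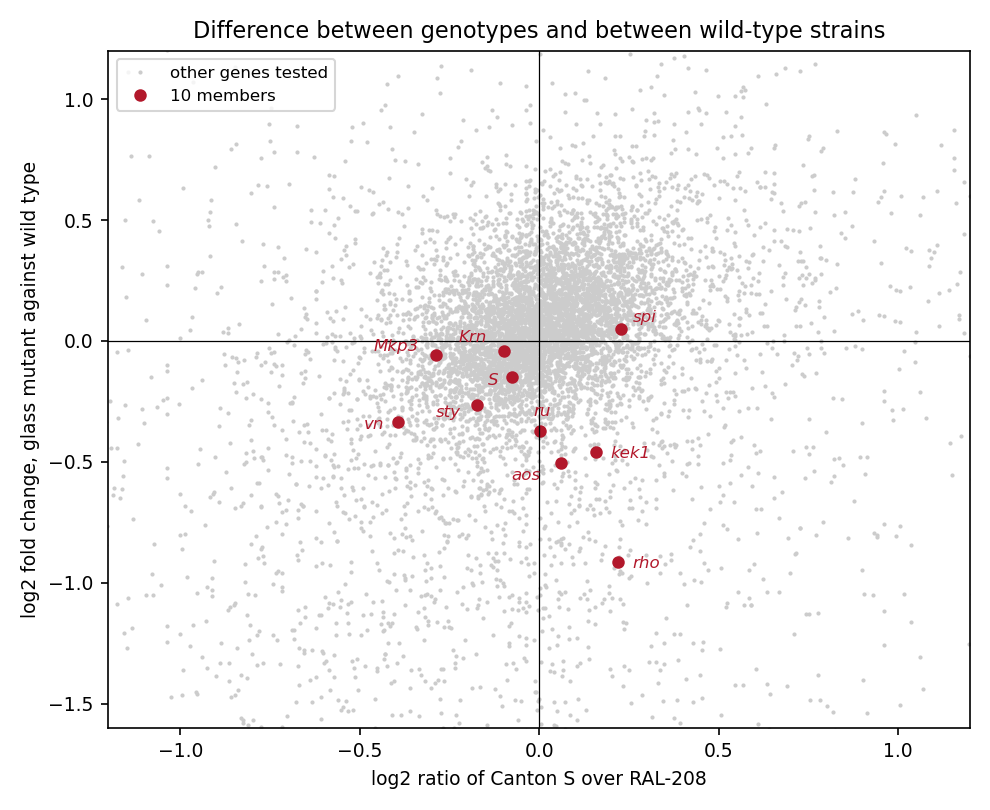
Fitted log2 fold change of the glass mutant against wild type (vertical) plotted against the log2 ratio of Canton S over RAL-208 (horizontal); grey points are other genes tested, red points the 10 members, and 1239 of the 9059 genes fall outside the drawn range. The member rho lies at -0.91 on the vertical axis, while spi, Krn and Mkp3 lie near 0.

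Genes of the same families differed among themselves. Of the other rhomboid genes, rho-5 encodes an inactive rhomboid (iRhom), which in flies restrains EGFR signalling, and its levels were 39.2 and 38.5 CPM in the strains and 20.2 and 21.3 in the mutant. Its fitted log2 value was -0.82 (SE 0.16), and edgeR's adjusted p was 0.214 on summed libraries and 0.0144 in the fit of 4 libraries. stet, a rhomboid protease gene known from the germ line, was lower in reads, at 8.75 and 8.55 CPM against 4.34 and 4.33, and was called lower in the fit of 4 libraries with an adjusted p of 0.0420. rho-4, at 84.8 and 64.3 CPM against 94.1 and 98.7, and rho-7, the mitochondrial rhomboid gene, at 42.4 and 36.4 against 39.1 and 35.8, were not called. rho-6 did not pass the filter, with 9 reads in RAL-208 and 0 in each other library. Of the other processing genes, rasp, whose acyltransferase adds palmitate to Spitz, had 43.2 and 43.5 CPM against 44.0 and 44.7 and was not called, nor were ast (log2 fold change -0.15) and sl, the phospholipase C gamma gene (0.16).

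The other kekkon genes, which encode relatives of Kekkon-1, were mostly low in reads. kek3 had 9.49 and 11.5 CPM in wild-type discs and 3.10 and 2.96 in mutant discs, and kek4 was at 3.71 and 4.49 against 1.42 and 0.776. Both were called lower in the fit of 4 libraries, with fitted log2 fold changes on summed libraries of -1.73 (SE 0.40) and -2.01 (SE 0.53) and edgeR adjusted p-values there of 0.224 and 0.242. kek6 stood at 12.3 and 11.5 CPM against 7.26 and 5.44 and was not called (adjusted p = 0.0580 in the edgeR fit of 4 libraries). kek5 was at 220.3 and 205 against 219 and 226, and kek2 at 20.8 and 21.6 against 18.0 and 19.0, and neither was called. In the same mutant libraries the neuronal markers brp (132 and 104 CPM against 40.0 and 39.7) and Syt1 (87.5 and 96.7 against 26.3 and 28.0) were lower as well. In the central nervous system list 11 of 13 were called lower in the fit of 4 libraries, beside 11.3% of all genes. Of that list dpn and mira were not called, at fitted log2 fold changes of -0.02 and -0.06. A link between these markers and the kekkon genes was not tested.

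**Figure D4:**
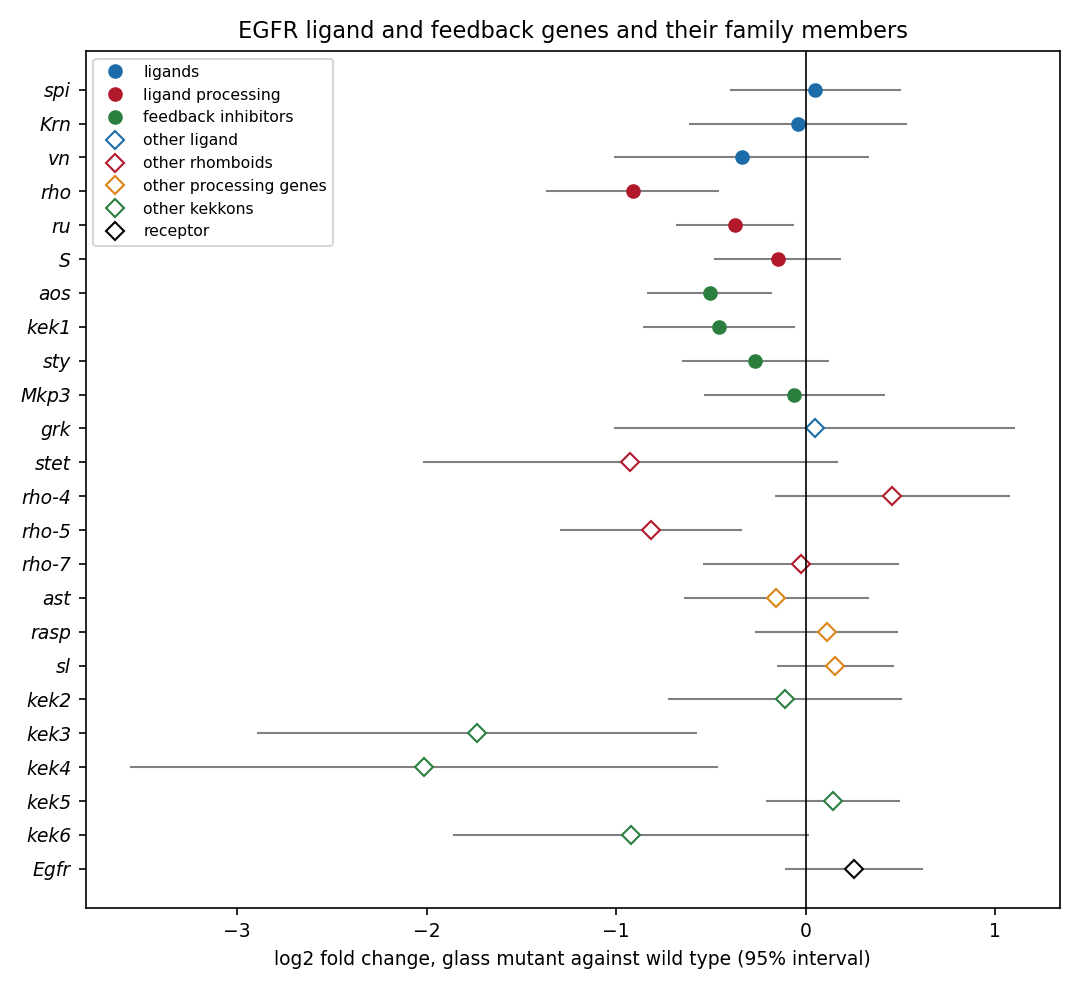
Fitted log2 fold change of the glass mutant against wild type, with its 95% interval, for the 10 members (filled circles) and for other ligand, rhomboid, processing, kekkon and receptor genes (open diamonds), from edgeR on summed mutant libraries. The intervals of rho, ru, aos, kek1, rho-5, kek3 and kek4 lie below 0, before any adjustment for the number of genes.

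The receptor and the genes beyond it showed values on both sides of wild type. Egfr, the receptor gene, had 465 CPM in Canton S and 424 in RAL-208 against 511 and 502 in the mutant, with a fitted log2 fold change of 0.26 (SE 0.12, adjusted p = 0.415 in edgeR on summed libraries and 0.0716 in the fit of 4 libraries). The germ line ligand gene grk was at 15.5 and 24.6 CPM against 21.9 and 18.7. Over all 38 other pathway genes listed, 36 were matched by name and 35 were tested, with a median log2 fold change of -0.05. Of these 35, edgeR on summed libraries called 0, with 3 lower and 2 higher where p was not adjusted, while DESeq2 called ttk higher and 0 lower. The fit of 4 libraries called 5 lower, namely stet, rho-5, kek3, kek4 and Cbl, and 3 higher, namely aop, ttk and ed. These counts are near the shares of all genes, 11.3% lower and 8.05% higher in that fit and 10.2% and 6.44% without adjustment on summed libraries, so they set the list apart in neither direction.

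Of these further genes, Cbl, the ubiquitin ligase gene that directs active receptor to degradation, had 144 and 137 CPM in wild-type discs against 109 and 106 in mutant discs. aop encodes the repressor Yan, which MAP kinase inactivates, and it was at 541 and 498 CPM against 665 and 648. ttk, a transcriptional repressor gene of photoreceptor fate, was at 374 and 348 CPM against 496 and 494, and ed, the gene of the adhesion protein Echinoid, at 1209 in both wild types against 1392 and 1353. These 4 genes are named because the fit of 4 libraries called them, so that their groups did not overlap adds little. Over the 35 tested pathway genes, both mutant libraries lay below both strains in 17 and above both in 8. Of all genes tested, 41.0% and 26.2% did so. In the 3 higher ones of the 4 the fitted log2 fold changes were 0.40, 0.53 and 0.25. The Ras relay list had 10 tested genes, of which 0 were called in the fit of 4 libraries, and their median log2 fold change was -0.03. pnt, the ETS factor gene that MAP kinase activates, was at 129 and 116 CPM against 125 and 115, so the groups overlapped.

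For each member called in the fit of 4 libraries, the tested genes with the nearest profile were found by Euclidean distance of log2(CPM + 1), centred over the 4 libraries. With 4 libraries, of which 2 are technical replicates, many genes lie close, and the names are a description. For rho they were loaf (167 and 148 CPM against 82.5 and 78.8), Syt14 and CG15385. For aos they were RabX4 (19.0 and 18.6 CPM against 12.3 and 12.3), GlcT and Cyp9h1, and for kek1 they were klu (128 and 115 CPM against 88.4 and 84.4), CG13933 and CG10283. For ru they were lncRNA:roX1, CG13775 and thoc5. The distances lay between 0.0269 and 0.0532.

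The genes listed as photoreceptor markers, measured in the same libraries, moved in both directions. Which cells their reads came from was not tested. Over 12 tested genes the median fitted log2 fold change was -0.29, and the fit of 4 libraries called 6 lower (elav, sev, svp, scrt, lz and boss) and 1 higher (ro), beside 11.3% and 8.05% of all genes. elav, the pan-neuronal marker, had 192 CPM in Canton S and 234 in RAL-208 against 127 and 122 in the mutant, with a fitted log2 fold change of -0.71. boss, the gene of the ligand of Sevenless, had the lowest fitted value, -3.54, at 9.49 and 5.17 CPM against 0.797 and 0.518. ro, the homeobox gene rough, had the highest, 0.89, at 11.3 and 12.5 CPM against 20.4 and 21.1. The 5 genes not called ran from -0.15 (ato) to 0.48 (B-H2).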

How the data were processed

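The authors deposited whole numbers, the raw read counts of each FlyBase gene, in a separate table for every library. The submitters' processing notes name CASAVA 1.8, TopHat2 2.0, HTSeq and dm3 but not what each was used for; the sources used here do not state strand use, counting mode or annotation. The counter's summary lines were left out, and gene reads were 74.4% to 76.7% of a counted total. Symbols came from a reference table (13746 of 14885 genes), and lengths and neighbours from the BDGP6 annotation, whose coordinates are not printed because the build differs.

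CPM are counts scaled to 1000000 gene reads. Genotypes were compared with edgeR 4.0.16 in R 4.3.3 (quasi-likelihood F test, TMM factors of 1.01, 1.02 and 0.967, filterByExpr on the 4 libraries with a minimum count of 10, Benjamini-Hochberg). Summing the mutant libraries leaves 1 residual degree of freedom, and the lone mutant sample is assumed to vary like the strains. SE and 95% intervals derive from the F statistic. Scaling by totals moved the median log2 fold change of all genes by -0.073. Alternatives were the fit of 4 libraries, DESeq2 1.42.0, limma-voom (limma 3.58.1), other scalings, no filter and leaving out libraries. A floor of 3 reads was 0.111 to 0.266 CPM, below every member. Exact binomial intervals cover counting error only.

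The text names all 10 members, the genes of their families, the receptor, other pathway genes called in the fit of 4 libraries, gl and, per called member, the 3 nearest profiles. The families meant are the ligands, rhomboids and kekkons. The marker genes of other tissues and of photoreceptors, pnt, and the processing genes rasp, ast and sl fall outside that rule. They were named after their values were seen. Members and lists were chosen with earlier results of these data known. Of all list entries 8 matched no name and are not analysed here.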

Additional observations from a re-analysis of the deposited data

How the results depend on the processing

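Against 0 genes and 0 members called by edgeR on summed libraries, the fit of 4 libraries called 1025 genes lower and 729 higher, with 4 members lower, and DESeq2 called 396 genes lower and 179 higher, with 1 member lower. With single libraries left out, the fit of 4 libraries called 0 genes without either mutant library, 2678 lower and 2671 higher without Canton S, and 2195 lower and 2111 higher without RAL-208. Members called in it ran from 0 to 8 lower and from 0 to 1 higher (spi, without Canton S), and without RAL-208 it called 6 lower. With a strain left out, the only spread left in that fit is between technical replicates, so those calls set 1 strain against the mutant by technical noise alone and say nothing of biological spread. Asking for a gap of 25% brought the members below both wild types from 7 to 4. The fitted values of rho, ru, S, aos, kek1, sty and vn were below 0 under every alternative run. The sign turned for spi with library totals (-0.022), for Krn without the filter (0.0136) and without the second mutant library (0.0461, against a lowest value of -0.0822 without Canton S), and without RAL-208 for spi (-0.065), Krn (0.0014) and Mkp3 (0.084) with the mutant summed, and in the fit of 4 libraries for spi (-0.0669), Krn (0.0089) and Mkp3 (0.0881); the cause was not tested. The log2 ratio of mean CPM of spi was -0.020 by totals and 0.045 by TMM.

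No paired analysis was possible because the wild-type labels carry no replicate number and the mutant libraries are technical replicates. With 1 mutant sample, biological spread within the mutant was not measured.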
